A study of Mus musculus with 16 samples.

Results

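The enzymes that make NAD+ and the kinases that turn it into NADP+ were followed at the RNA level in the mouse hippocampus. The 10 genes Nampt, Nmnat1, Nmnat2, Nmnat3, Nmrk1, Naprt, Nadsyn1, Qprt, Nadk and Nadk2 were taken by their symbols from the 54532 genes of the deposited count table, whatever their values, and each symbol stood there once. RNA was sequenced from 16 mice in 4 groups of 4. WT and hTau.P301S mice drank water without a supplement, and WT + NR and hTau.P301S + NR mice drank water with 6 mM nicotinamide riboside (NR), a precursor of NAD+. The hTau.P301S mouse expresses human Tau with the P301S mutation from a Thy1 promoter, which is mainly active in neurons. By the labels, NR was given for 3 months from an age of 12 months to an age of 15 months, and behavioral tests preceded the collection of tissue. The study's text gives other ages and lengths for the treatment. No source used here gives the sex of each mouse or its litter.

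NAD+ carries electrons in energy metabolism and is the substrate of sirtuins, PARPs and CD38, which split it and release nicotinamide. NAMPT recycles that nicotinamide to nicotinamide mononucleotide, NMRK1 makes the same product from NR, and NMNAT1 in the nucleus, NMNAT2 in the Golgi and axons of neurons and NMNAT3 in mitochondria turn it into NAD+. NAPRT starts a parallel route from nicotinic acid, QPRT feeds that route with quinolinate from tryptophan, and NADSYN1 completes it. NADK in the cytosol and NADK2 in mitochondria add a phosphate to NAD+.

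Between 16490261 and 21915362 counts were listed for each mouse. hTau.P301S replicate 1 stood apart from all other mice. Its mitochondrial share of counts was 14.4% (4.48% to 7.07% in the other 15), it had 19467 genes with a count (22199 or more in the other 15), and its TMM factor, which scales its total, was 0.685 (0.955 to 1.099 in the other 15). Values are given with this mouse and, where they rest on it, without it. Levels are in CPM, the count per TMM-scaled total of the mouse. Markers of neurons and of hippocampal excitatory neurons were counted in every group, with summed levels of 2105 to 4607 CPM and of 381 to 1031 CPM, and no gene of either list was at 0. Markers of tissue that borders the hippocampus varied between mice, with 19.1 to 9804 CPM for 5 choroid plexus genes and 56.5 to 1074 CPM for 5 striatal genes. In tissue RNA, fewer cells of a type and less RNA per cell cannot be told apart.

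The 10 genes lie on 7 chromosomes of GRCm38, the assembly that mm10 denotes, and all are annotated as protein coding by GENCODE. Nampt is at chr12:32819545-32853349 on the plus strand, Nmnat2 at chr1:152954993-153119261 on the plus strand, Nmnat3 at chr9:98287435-98420438 on the plus strand and Nadk at chr4:155562378-155591001 on the plus strand. Sequence upstream of their RefSeq start sites is shown for these 4 because each had an unadjusted p under 0.05 in a comparison of the genotypes, with or without hTau.P301S replicate 1. The windows are of build GRCm38.p6, at most 250 bases long and cut where an annotated exon of the gene begins. Capitals mark the GC box GGGCGG and the first letters of a cyclic AMP response element, TGACG, on either strand. The 2 motifs do not overlap each other in these windows. Nadk has 2 windows because RefSeq lists separate start sites for it, and the one further upstream is given first. They lie, in the order shown, at chr12:32820085-32820334, chr1:152954851-152954992, chr9:98296320-98296569, chr4:155562131-155562377 and chr4:155563565-155563699, all on the plus strand. The windows of Nampt, of Nmnat3 and the second of Nadk lie inside the GENCODE gene, whose annotated start is further upstream.
Nampt: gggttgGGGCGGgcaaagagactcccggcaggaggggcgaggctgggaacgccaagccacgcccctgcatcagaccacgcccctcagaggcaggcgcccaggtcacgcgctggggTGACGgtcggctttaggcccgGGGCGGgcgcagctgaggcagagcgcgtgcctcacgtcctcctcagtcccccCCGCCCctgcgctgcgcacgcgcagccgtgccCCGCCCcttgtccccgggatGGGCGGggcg
Nmnat2: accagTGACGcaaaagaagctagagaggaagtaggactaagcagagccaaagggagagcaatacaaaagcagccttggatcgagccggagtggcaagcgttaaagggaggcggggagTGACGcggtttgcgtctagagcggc
Nmnat3: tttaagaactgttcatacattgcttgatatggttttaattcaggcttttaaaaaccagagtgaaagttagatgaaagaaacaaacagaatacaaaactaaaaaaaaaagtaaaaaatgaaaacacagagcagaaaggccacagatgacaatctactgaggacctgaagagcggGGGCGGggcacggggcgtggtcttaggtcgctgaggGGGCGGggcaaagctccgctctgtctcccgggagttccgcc
Nadk: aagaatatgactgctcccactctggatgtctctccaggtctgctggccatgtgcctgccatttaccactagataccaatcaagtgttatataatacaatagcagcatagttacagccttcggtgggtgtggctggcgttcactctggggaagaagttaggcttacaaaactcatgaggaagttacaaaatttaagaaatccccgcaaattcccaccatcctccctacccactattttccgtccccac
Nadk: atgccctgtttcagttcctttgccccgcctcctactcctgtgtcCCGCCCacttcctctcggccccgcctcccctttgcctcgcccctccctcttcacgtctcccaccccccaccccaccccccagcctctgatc

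Nampt had 5 matches to the GC box and 1 to TGACG, and 75.6% of its window was G or C, against a median of 52.4% over all promoters. Nmnat2 had no GC box in its 142 bases and 2 matches to TGACG. Nmnat3 had 2 GC boxes in a window with 45.6% G or C, and Nadk had none in the upstream window and 1 in the other. Among all 32536 promoters of RefSeq cut to 250 bases, 33% held the GC box and 17.9% held TGACG. The E-box CACGTG, held by 6.04% of promoters, and the letters TATAAA, held by 12.3%, were in none of the printed windows. These matches are a description of the letters, and 2 of the 10 genes, Naprt and Nadk2, had no entry in the table of promoters.

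The levels of the 10 enzymes spanned a wide range. Levels of different genes were compared per kilobase of the deposited gene length. For every enzyme but Nmrk1 that length equals all annotated exons together, and which transcripts were present was not measured. By this scale Nmnat2 was highest in WT mice with 27.3 ± 1.98 CPM per kilobase (SD, n = 4), followed by Nadk with 18.1 ± 0.84. Nampt with 12.1 ± 1.36 and Nadk2 with 11.6 ± 1.31 came next and overlapped each other. These 4 genes lay above 75.7% or more of the genes that passed the filter on low counts. Naprt stood between the higher and the lower genes with 3.6 ± 0.63 CPM per kilobase. Nmnat1 with 1.81 ± 0.31, Nmrk1 with 1.31 ± 0.38 and Nadsyn1 with 1.21 ± 0.075 followed, each overlapping the next of them. Nmnat3 with 0.658 ± 0.194 and Qprt with 0.637 ± 0.377 were lowest and overlapped, and they lay above 17.7% and 17.2% of the genes.

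The order was the same in all 4 groups by the group means. In WT + NR and hTau.P301S + NR mice the same neighbours overlapped as in WT mice. In hTau.P301S mice Nmnat2 also overlapped Nadk and Nadk2 also overlapped Naprt, both through replicate 1. The neuronal nicotinamide mononucleotide adenylyltransferase Nmnat2 was in every group the most abundant of the 3 Nmnat RNAs per kilobase, and its mean in WT mice was 27.3 CPM per kilobase against 1.81 for the nuclear Nmnat1 and 0.658 for the mitochondrial Nmnat3.

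**Figure D1:**
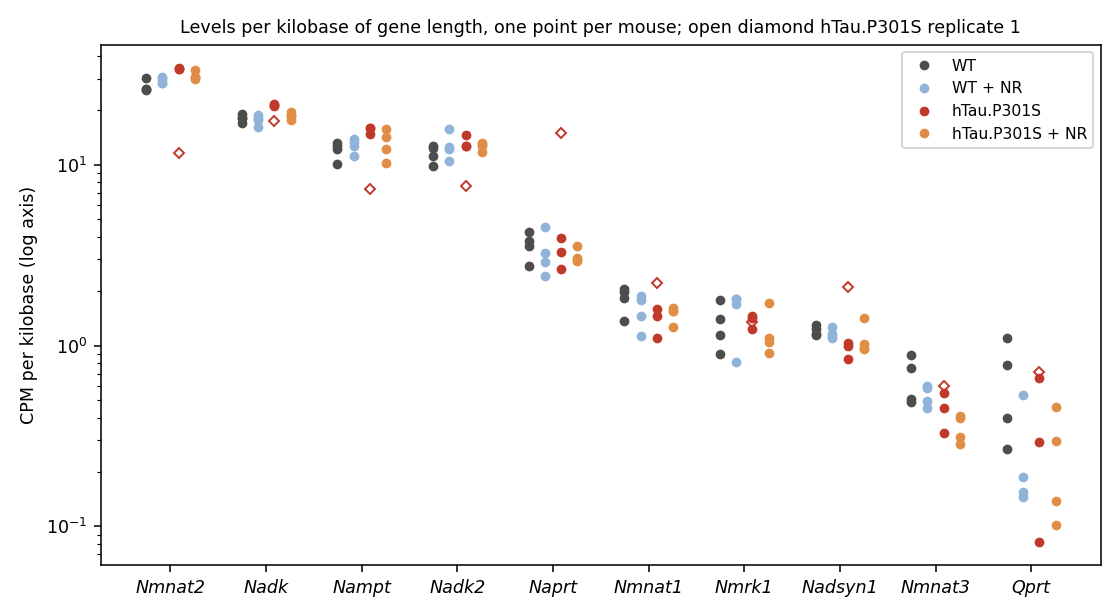
Levels of the 10 NAD enzymes per kilobase of gene length on a log axis, 1 point per mouse and 1 color per group, in the order of the WT means. Nmnat2 is highest with 26.0 to 30.2 CPM per kilobase in WT mice, Qprt is lowest with 0.269 to 1.101, and the open diamond, hTau.P301S replicate 1, lies apart from the other 3 hTau.P301S mice for several genes.

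Nampt, the rate-limiting enzyme of the salvage route, had 67.0, 51.3, 64.4 and 62.1 CPM in WT replicates 1 to 4 and 63.9, 69.9, 56.7 and 67.7 CPM in WT + NR replicates 1 to 4. In hTau.P301S mice it had 37.1, 80.8, 74.5 and 81.0 CPM, and in hTau.P301S + NR mice 72.5, 61.8, 80.3 and 51.5 CPM. The hTau.P301S mice thus held both the lowest value of the 16, in replicate 1, and 3 values above every WT mouse. The log2 fold change of Nampt in hTau.P301S relative to WT mice was 0.16 (standard error 0.25, edgeR, Benjamini-Hochberg adjusted p = 0.820). Without replicate 1 the value was 0.36 (standard error 0.12, adjusted p = 0.367). All 3 remaining mice were then above the 4 WT mice, and with 3 against 4 an exact permutation test cannot go below p = 0.0571, the value it gave.

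Nmrk1, the kinase for the NR that the treated mice drank, had few counts, 53 to 118 per mouse. Its levels were 5.97, 3.02, 3.85 and 4.71 CPM in WT mice, 6.06, 6.07, 2.71 and 5.70 CPM in WT + NR mice, 4.53, 4.13, 4.74 and 4.88 CPM in hTau.P301S mice and 3.50, 3.71, 5.77 and 3.06 CPM in hTau.P301S + NR mice. The 4 groups overlapped throughout. NR against no NR gave log2 fold changes of 0.23 in WT mice (standard error 0.32, adjusted p = 1.0) and -0.20 in hTau.P301S mice (standard error 0.26, adjusted p = 0.693). Without hTau.P301S replicate 1 the latter was -0.19. Nmrk2, its relative in muscle, had no count in any WT mouse and at most 1 count in a WT + NR, 2 in an hTau.P301S and 8 in an hTau.P301S + NR mouse, with a mean of 0.159 CPM in the last group.

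Naprt, the entry of nicotinic acid, had 8.33, 10.0, 8.86 and 6.49 CPM in WT mice, 10.6, 7.65, 6.76 and 5.70 CPM in WT + NR mice, 35.1, 7.68, 9.21 and 6.21 CPM in hTau.P301S mice and 8.38, 6.89, 7.17 and 6.95 CPM in hTau.P301S + NR mice. A single mouse, hTau.P301S replicate 1 with 411 counts, was far above the other 15, and the rest of its group lay within the range of the WT mice or just below it. The log2 fold change of Naprt in hTau.P301S relative to WT was 0.80 (standard error 0.55, adjusted p = 0.607), the largest of the 10 genes in this comparison, and without replicate 1 it was -0.14 (standard error 0.23, adjusted p = 0.824). With NR in hTau.P301S mice it was -1.0 (standard error 0.54, adjusted p = 0.375), and -0.06 without replicate 1. Naprt (chr15:75890956-75894481, minus strand) shares 277 exonic bases with Eef1d, a translation elongation factor gene on the same strand, and 9.32% of its 50-base stretches are also in Eef1d, so reads there can be counted to either gene. Eef1d had 186 CPM in hTau.P301S replicate 1 and 56.1 to 81.2 CPM in the other 15 mice. Its part in the Naprt value was not tested. Other enzymes also had 50-base stretches found in other genes, 4.7% for Nmnat1, 3.3% for Nmrk1, 3.07% for Qprt and 0.0852% for Nmnat2.

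Qprt, which takes quinolinate into NAD+ synthesis, was the gene with the fewest counts, 4 to 52 per mouse. It had 0.713, 2.91, 1.05 and 2.06 CPM in WT mice, 0.411, 0.383, 0.494 and 1.41 CPM in WT + NR mice, 1.88, 1.748, 0.218 and 0.776 CPM in hTau.P301S mice and 0.269, 0.365, 0.784 and 1.22 CPM in hTau.P301S + NR mice. The lowest 3 of the 4 WT + NR mice were below every WT mouse, and the other one was within the WT range. The log2 fold change of Qprt with NR was -1.31 in WT mice (standard error 0.59, adjusted p = 1.0) and -0.80 in hTau.P301S mice (standard error 0.71, adjusted p = 0.545). In the WT pair, the WT mice, where Qprt was higher, carried it past the filter on low counts. In the average over both genotypes the mice without NR did so. The tests of the WT value and of this average therefore cannot support a difference. With 1 mouse left out, the WT value ran from -1.94 without WT + NR replicate 4 to -0.92 without WT replicate 2. The hTau.P301S value ran from -1.28 without hTau.P301S + NR replicate 4 to -0.46 without hTau.P301S replicate 1. Averaged over both genotypes the log2 fold change of Qprt with NR was -1.06 (standard error 0.48, adjusted p = 0.510). Without hTau.P301S replicate 1 the average was -0.89 (adjusted p = 0.793). Leaving out other single mice also moved the unadjusted p of this average past 0.05. Qprt did not pass the filter on low counts in hTau.P301S + NR against WT + NR mice.

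**Figure D2:**
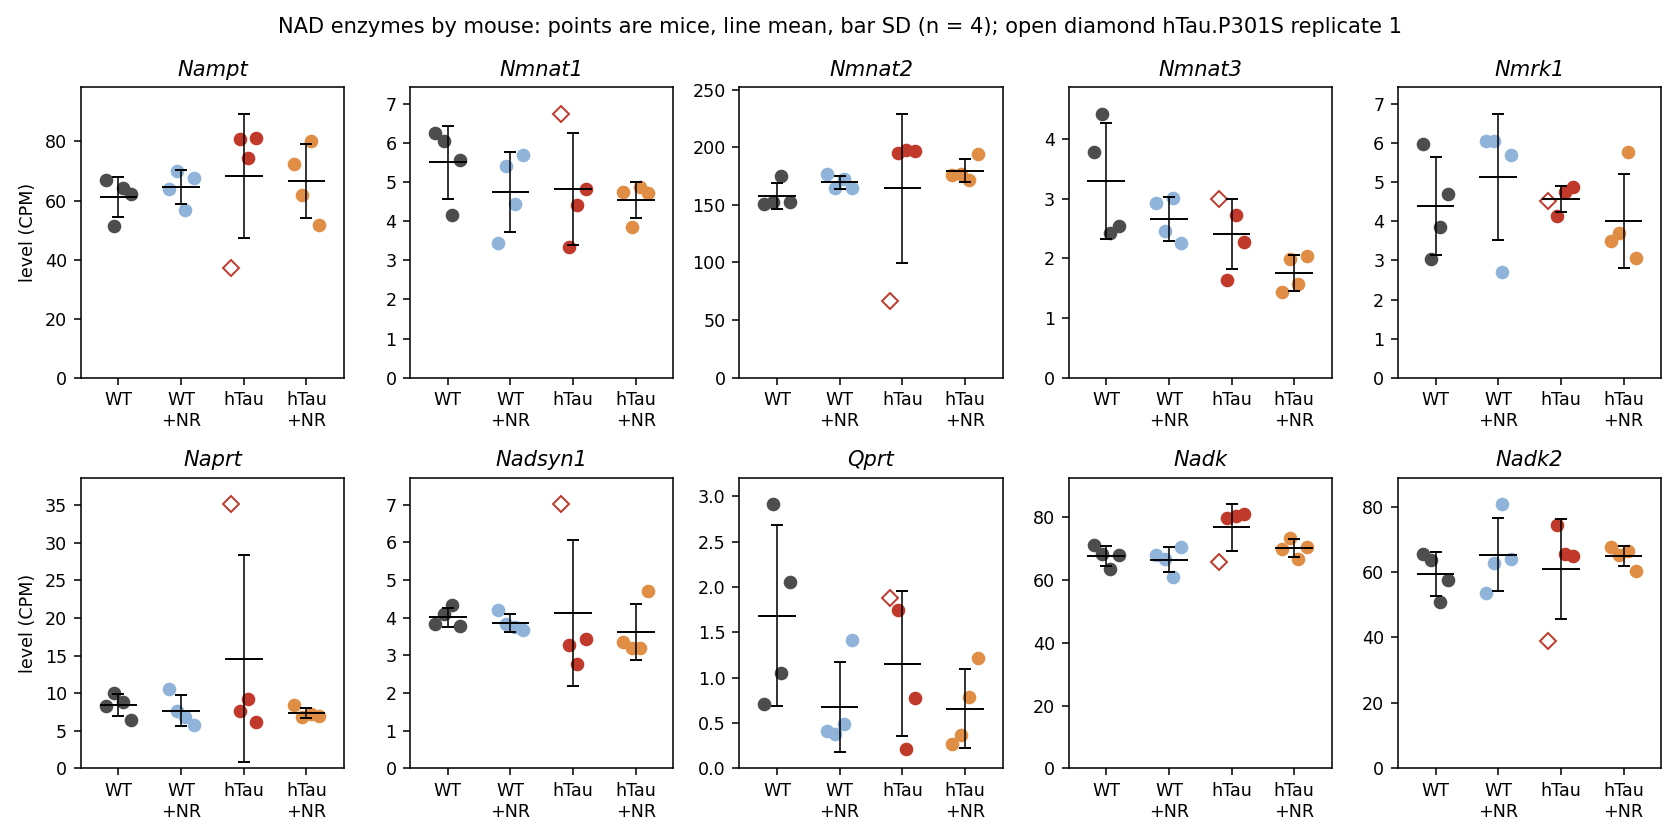
Levels of the 10 NAD enzymes in CPM, 1 panel per gene with an axis from 0, 1 point per mouse with the group mean and SD (n = 4). The open diamond is hTau.P301S replicate 1, which is lowest of its group for Nampt (37.1 CPM), Nmnat2 (66.9 CPM) and Nadk (65.7 CPM) and highest for Naprt (35.1 CPM).

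Nmnat2, the adenylyltransferase on which axons of neurons depend, had 150.3, 153, 175 and 153 CPM in WT mice and 176, 165, 172 and 165 CPM in WT + NR mice. It had 66.9, 195, 198 and 197 CPM in hTau.P301S mice and 176, 176, 172 and 194 CPM in hTau.P301S + NR mice. The last 3 hTau.P301S mice differed from each other by less than any other group's mice did (SD 1.57 CPM, n = 3), and they exceeded all mice of the other 3 groups. The log2 fold change of Nmnat2 in hTau.P301S relative to WT was 0.06 with all mice (standard error 0.32, adjusted p = 0.958) and 0.31 without replicate 1 (standard error 0.11, adjusted p = 0.385). Averaged over treatment, 8 against 8 mice gave 0.07 (adjusted p = 0.933) and, without replicate 1, 0.20 (standard error 0.06, adjusted p = 0.162). With NR in hTau.P301S mice, the value with all mice was 0.13 (standard error 0.32, adjusted p = 0.836), and the groups overlapped. Without replicate 1 the sign changed, to -0.12 (standard error 0.09, adjusted p = 0.538). The groups then did not overlap (exact permutation p = 0.0571, the smallest possible). They were close, with a lowest value of 194.9 CPM without NR and a highest of 194.5 CPM with NR.

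Nmnat1, the nuclear enzyme, moved between 3.34 and 6.75 CPM. Its levels were 6.25, 6.05, 4.17 and 5.57 CPM in WT mice, 3.44, 5.41, 4.44 and 5.70 CPM in WT + NR mice, 6.75, 3.34, 4.41 and 4.82 CPM in hTau.P301S mice and 4.75, 3.86, 4.87 and 4.71 CPM in hTau.P301S + NR mice. All 4 groups overlapped. The log2 fold change in hTau.P301S relative to WT was -0.19 (standard error 0.30, adjusted p = 0.819) and -0.40 without replicate 1 (standard error 0.25, adjusted p = 0.535).

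Nmnat3, the mitochondrial enzyme, was the one gene of the 10 whose level was lower in the transgenic mice on NR than in every WT mouse on NR. It had 3.78, 4.43, 2.43 and 2.54 CPM in WT mice, 2.93, 2.46, 3.01 and 2.26 CPM in WT + NR mice, 2.99, 1.64, 2.72 and 2.27 CPM in hTau.P301S mice and 1.43, 1.98, 1.57 and 2.04 CPM in hTau.P301S + NR mice. All 4 values of the hTau.P301S + NR group were below the 8 values of the mice without the transgene. In hTau.P301S + NR relative to WT + NR mice the log2 fold change was -0.60 (standard error 0.23, adjusted p = 0.781). The exact permutation test gave p = 0.0286, the smallest that 4 against 4 mice allow and the only value under 0.05 among 40 such tests. Adjusted over these 40 exact permutation tests by Benjamini-Hochberg, the p was 0.914. Averaged over treatment, the log2 fold change by genotype was -0.53 (standard error 0.19, adjusted p = 0.423), and without hTau.P301S replicate 1 it was -0.59 (standard error 0.19, adjusted p = 0.188). The value of -0.60 between the groups on NR no longer had an unadjusted p under 0.05 without WT + NR replicate 1 or 3 or without hTau.P301S + NR replicate 1 or 3. These values rest on 28 to 79 counts per mouse. In hTau.P301S against WT mice, both without NR, the groups overlapped and the value was -0.45 (standard error 0.34, adjusted p = 0.629).

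Nadsyn1, which makes NAD+ from its nicotinic acid form, had 3.84, 4.09, 4.32 and 3.79 CPM in WT mice, 4.21, 3.83, 3.75 and 3.67 CPM in WT + NR mice, 7.01, 3.28, 2.78 and 3.44 CPM in hTau.P301S mice and 3.36, 3.18, 3.19 and 4.71 CPM in hTau.P301S + NR mice. In hTau.P301S mice, replicate 1 was above the other 15 mice and the other 3 mice were below every WT mouse. The log2 fold change in hTau.P301S relative to WT was 0.04 (standard error 0.35, adjusted p = 0.972) and -0.35 without replicate 1 (standard error 0.23, adjusted p = 0.553).

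Nadk, the cytosolic NAD kinase, was the most even of the 10 genes within WT mice, with 71.1, 68.2, 63.5 and 68.0 CPM, and it had 68.1, 66.7, 60.8 and 70.4 CPM in WT + NR mice. It had 65.7, 79.8, 80.4 and 81.1 CPM in hTau.P301S mice and 69.9, 73.5, 66.5 and 70.5 CPM in hTau.P301S + NR mice. The last 3 hTau.P301S mice were above all mice of the other 3 groups. In hTau.P301S relative to WT the log2 fold change was 0.18 (standard error 0.15, adjusted p = 0.646) and 0.24 without replicate 1 (standard error 0.10, adjusted p = 0.415). With NR in hTau.P301S mice it was -0.14 (standard error 0.13, adjusted p = 0.591) and -0.19 without replicate 1 (standard error 0.09, adjusted p = 0.296). Averaged over treatment the value by genotype was 0.13 (standard error 0.08, adjusted p = 0.631) and 0.16 without replicate 1 (standard error 0.06, adjusted p = 0.225).

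Nadk2, the mitochondrial NAD kinase, had 65.4, 63.6, 50.7 and 57.4 CPM in WT mice, 53.7, 62.8, 80.7 and 64.1 CPM in WT + NR mice, 39.0, 74.5, 65.4 and 64.9 CPM in hTau.P301S mice and 67.5, 65.3, 66.4 and 60.3 CPM in hTau.P301S + NR mice. The groups overlapped in each pair. Its log2 fold change in hTau.P301S relative to WT was 0.04 (standard error 0.22, adjusted p = 0.956) and 0.20 without replicate 1 (standard error 0.13, adjusted p = 0.551).

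The comparisons were then read over all 10 genes. Genes were called where the adjusted p was below 0.05 and the log2 fold change was beyond 0.5 in size, with edgeR and Benjamini-Hochberg adjustment over every gene that passed the filter. Between hTau.P301S and WT mice, 0 of the 10 enzymes were called, where 0.00611% of the 16375 genes tested were. At an unadjusted p under 0.05 there were also 0 enzymes against 7.14% of genes, and 0 enzymes had groups that did not overlap against 6.24% of genes. The enzymes' median log2 fold change was 0.05 and that of all genes 0.02. With all 4 mice, no enzyme passed any of these limits between the genotypes without NR, which does not show that none differed.

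Without hTau.P301S replicate 1, 0 of the 10 enzymes were called, against 0.0832% of 16835 genes. At an unadjusted p under 0.05, Nampt, Nmnat2 and Nadk were higher in hTau.P301S mice, 3 of 10 where 11.8% of all genes passed. The groups did not overlap for these 3 and for Nadsyn1, which was lower, 4 of 10 where 13.1% of all genes did not overlap. The smallest adjusted p of the enzymes was 0.367, that of Nampt. The 3 higher genes are among the 4 with the highest counts, and Nadk2, the remaining one, had a value of 0.20 with the same sign.

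Between hTau.P301S mice with and without NR, 0 of the 10 enzymes were called, where 0.00610% of 16386 genes were. At an unadjusted p under 0.05 there were 0, against 12.9% of genes, and the groups overlapped for all 10, against 11.9% of genes that did not overlap. The enzymes' log2 fold changes had a median of -0.17 and a range that ended at -1.0 for Naprt. Without hTau.P301S replicate 1, 0 enzymes were called against 0.197% of 16734 genes, and 0 had an unadjusted p under 0.05 against 18.0% of genes. Nmnat2 and Nadk did not overlap between the groups and were lower with NR, 2 of 10 enzymes where 17.1% of genes did not overlap. Both are also genes that were higher in these same 3 mice than in WT mice, and the 2 comparisons share the hTau.P301S mice.

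**Figure D3:**
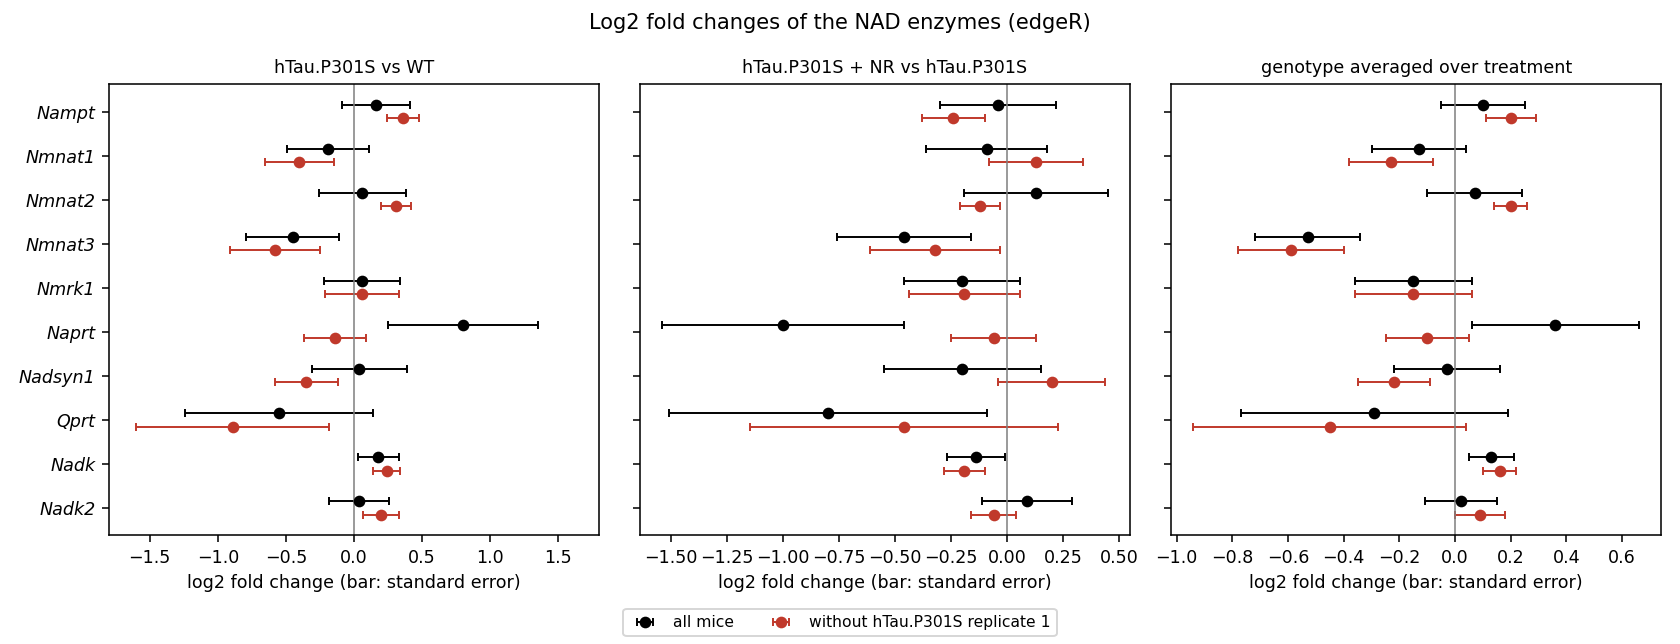
Log2 fold changes of the 10 NAD enzymes by edgeR with standard errors, for hTau.P301S relative to WT mice, for NR in hTau.P301S mice and by genotype averaged over treatment, with all mice in black and without hTau.P301S replicate 1 in red. The horizontal scales of the panels differ. Naprt goes from 0.80 to -0.14 in the first panel, while Nmnat3 stays at -0.53 and -0.59 in the third.

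In WT + NR relative to WT mice, NR was tested without the transgene. None of the 10 enzymes was called, where 0.00% of 16714 genes were. At an unadjusted p under 0.05 there were 0 enzymes against 0.790% of genes, and 0 did not overlap against 0.754%. The values other than that of Qprt ran from -0.30 for Nmnat3 to 0.23 for Nmrk1, with standard errors of 0.09 for Nadk to 0.32 for Nmrk1. Nampt had 0.08 (standard error 0.12), Nmnat2 0.11 (standard error 0.10), Nadk -0.02 (standard error 0.09) and Nadk2 0.15 (standard error 0.15). Every enzyme had an adjusted p of 1.0 by edgeR in this comparison.

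In hTau.P301S + NR relative to WT + NR mice, 9 of the 10 enzymes passed the filter and 0 were called, where 0.0540% of 16671 genes were. Nmnat3 was the 1 enzyme at an unadjusted p under 0.05, against 6.09% of genes, and the 1 whose groups did not overlap, against 3.73% of genes. The values of Nampt (0.04), Nmnat2 (0.08), Nadk (0.08) and Nadk2 (-0.01) were near 0, with standard errors of 0.08 to 0.14.

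Whether NR acted differently in the 2 genotypes was tested as an interaction over 16 mice. No enzyme passed an adjusted p of 0.05, as 0.00% of 17555 genes did, and 0 had an unadjusted p under 0.05 against 7.92% of genes. The largest interaction was that of Naprt, -0.84 (standard error 0.61, adjusted p = 0.613), which was 0.08 without hTau.P301S replicate 1. For genotype averaged over treatment, 0 enzymes were called against 0.159% of genes, and Nmnat3 was the 1 at an unadjusted p under 0.05, against 9.06% of genes. Without hTau.P301S replicate 1, 0 were called against 0.436% of 17897 genes, and Nmnat2, Nadk and Nmnat3 had an unadjusted p under 0.05, 3 of 10 where 14.7% of genes did. For NR averaged over genotype, 0 enzymes were called against 0.00% of genes, and Qprt was the 1 at an unadjusted p under 0.05, against 8.77% of genes. The mice without NR carried Qprt past the filter in this fit, so its p cannot support a difference.

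The 10 genes took different positions in hTau.P301S replicate 1. Relative to the mean of the other 3 hTau.P301S mice on the log2 CPM scale, this mouse was different by -1.55 for Nmnat2, -1.08 for Nampt, -0.80 for Nadk2 and -0.29 for Nadk, and it was at -0.01 for Nmrk1. It was higher by 0.45 for Nmnat3, 0.69 for Nmnat1, 1.13 for Nadsyn1, 1.29 for Qprt and 2.19 for Naprt. The 4 genes that were lower are the 4 with the highest levels. Naprt has the shortest deposited length of the 10, 2344 bases, and Nmnat2 the longest, 5781 bases. The order by length did not hold throughout, as Nmnat3 with 5004 bases was higher and Nadk with 3747 bases was lower. The part of level or length in these values was not tested. Of all genes that passed the filter, 14.3% had a value below that of Nmnat2, and 92.3% had a value below that of Naprt. In the same mouse, the summed level of 5 microglial markers was 424 CPM, against 221 to 308 CPM in the other 3 mice of its group, and that of 4 neuronal markers was 2105 CPM, against 3611 to 4607 CPM. Its markers of pericytes and smooth muscle summed to 34.8 CPM, against 123 to 150.4 CPM, those of astrocytes to 2286 CPM, against 3240 to 4720 CPM, and those of oligodendrocyte precursors to 51.5 CPM, against 85.0 to 103 CPM. Markers of the thalamus summed to 215 CPM, against 70.6 to 104 CPM, those of interneurons to 1146 CPM, against 765 to 832 CPM, and those of blood to 20.1 CPM, against 1.96 to 6.54 CPM. Lower too were those of hippocampal excitatory neurons (688 CPM, against 717 to 865 CPM) and of choroid plexus (19.1 CPM, against 38.9 to 4734 CPM). Those of oligodendrocytes (9026 CPM, against 7020 to 8643 CPM) and of striatum (121 CPM, against 66.8 to 119 CPM) were higher. The endothelial sum of 70.6 CPM lay within 56.2 to 98.6 CPM. The part of these markers in the enzyme levels was not tested.

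Some markers of other cell types also had different levels in hTau.P301S and WT mice without hTau.P301S replicate 1. At an unadjusted p under 0.05, 11.8% of all 16835 genes passed in either direction. Of the markers, 2 of 3 endothelial and 3 of 3 blood markers were lower at this limit, with a median log2 fold change of -0.84 and of -2.98. The 3 endothelial markers summed to 56.2 to 98.6 CPM in these 3 mice and to 93.5 to 196 CPM in WT mice, and the 3 blood markers to 1.96 to 6.54 CPM and 11.6 to 80.6 CPM. Of 5 striatal markers 2 were lower, with a median of -2.38, and their sum was 66.8 to 119 CPM against 56.5 to 1074 CPM. The highest WT sum was that of WT replicate 2 alone. The other WT mice had 56.5 to 136 CPM, a range that holds all 3 hTau.P301S mice. For oligodendrocytes, astrocytes and microglia 1 of 5 markers each was higher, with medians of 0.50, 0.04 and 0.10. The oligodendrocyte sum was 7020 to 8643 CPM against 2567 to 7460 CPM. The 4 neuronal markers summed to 3611 to 4607 CPM against 2473 to 4105 CPM in WT mice, and 0 of 4 passed, with a median of 0.32. Nampt, Nmnat2 and Nadk were higher in the same 3 mice, and what these markers contribute to that was not tested.

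By Spearman correlation across the mice, the strongest relation among the 10 genes was between the 2 enzymes that form NAD+ in the nucleus and in neuronal axons. Nmnat1 and Nmnat2 had -0.81 over 16 mice and -0.76 over the 15 without hTau.P301S replicate 1. Their Pearson correlations were -0.63 and -0.67. By that measure many pairs came before them over 16 mice. Among these were Nmnat2 and Nadsyn1 (-0.79), Nadsyn1 and Nadk2 (-0.79), Naprt and Nadk2 (-0.77) and Nampt and Nmnat2 (0.76). Nampt and Nadsyn1 (-0.86 and -0.68) came before them over 16 and over 15 mice, the only pair to do so over 15. Nmnat2 and Naprt also had a Pearson correlation of -0.86 over 16 mice, and -0.07 without that mouse. By Spearman correlation Nadsyn1 and Nadk2 had -0.73 and -0.67, and Nadsyn1 and Nampt -0.65 and -0.58. Nmnat2 and Nadk, both high in the last 3 hTau.P301S mice, had 0.58 and 0.54, and Nampt and Nmrk1, which both make nicotinamide mononucleotide, had 0.48 and 0.52. All values of a mouse come from 1 library and share its scaling, and the mice belong to 4 groups. These values are given as a description.

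**Figure D4:**
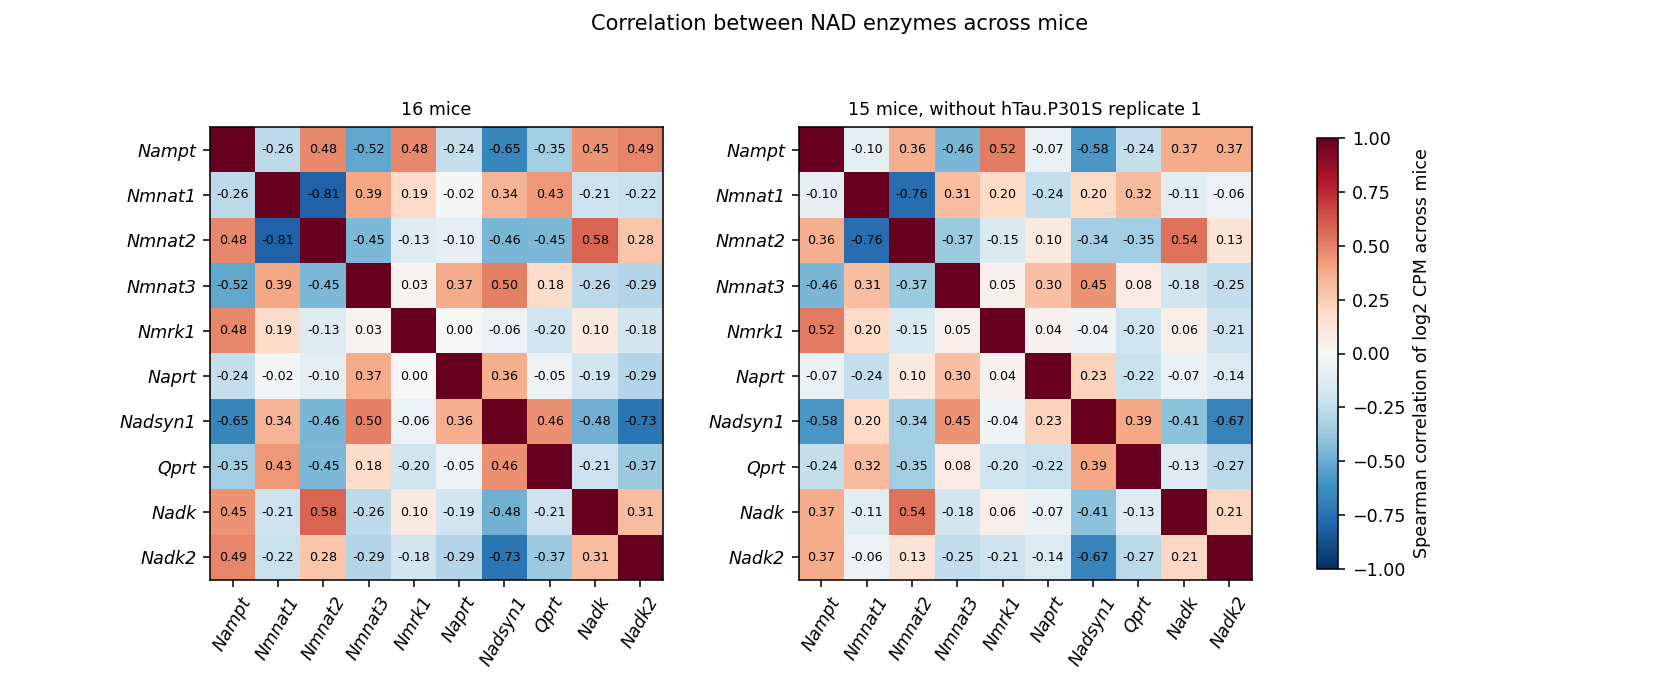
Spearman correlations of log2 CPM between each pair of the 10 NAD enzymes, over 16 mice and over 15 mice without hTau.P301S replicate 1, with red for positive and blue for negative values. The pair Nmnat1 and Nmnat2 is the most negative in both, with -0.81 and -0.76, and Nmnat2 with Nadk is the most positive in both, with 0.58 and 0.54.

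Among 17554 other genes, those whose level followed Nampt most closely over 16 mice were Klhl20 (Spearman correlation 0.97), Polr3f (0.96), Megf9 (0.96), Susd6 (0.96) and Rapgef2 (0.94). Over 15 mice the first 4 were the same genes, with 0.95 to 0.96, and Errfi1 (0.93) took the fifth place. None of the other 9 enzymes came near these values with Nampt, the highest being 0.49 for Nadk2 over 16 mice. For Naprt, which had the largest difference between hTau.P301S and WT mice with all mice, they were Phf5a (0.78), Particl (0.78), Pisd (0.77), Tceal6 (0.75) and Mfsd4b4 (0.75). Over 15 mice they were Med26 (0.77), Gm5846 (0.74), Phf5a (0.74), Particl (0.73) and Pisd (0.72). Without hTau.P301S replicate 1 the largest difference was that of Qprt, -0.89 (standard error 0.71), with overlapping groups. The WT mice, where Qprt was higher, carried it past the filter there, so this value cannot support a difference.

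A wider list of 38 genes covered the kynurenine route from tryptophan, the handling of NR and nicotinamide mononucleotide, carriers into organelles, the clearance of nicotinamide, and the repair and turnover of NAD(P)(H). Between hTau.P301S and WT mice, 25 of the 38 passed the filter and 0 were called in either direction. By an unadjusted p below 0.05, 3 had higher and 0 had lower levels, where 7.14% of all genes passed in either direction, and without hTau.P301S replicate 1 the numbers were 5 and 0 of 26, where 11.8% of all genes passed. The median log2 fold change was 0.29 with all mice and -0.03 without replicate 1, and that of all genes was 0.02 and -0.03. With NR in hTau.P301S mice, 0 of 25 were called, 0 were higher and 3 lower at that limit, where 12.9% of all genes passed. Without replicate 1, 3 of 26 were lower, where 18.0% of all genes passed. Afmid is among the 26 but is not counted by its p, because it passed the filter only through the NR group. Between WT mice with and without NR, 0 of 27 passed the limit, against 0.790% of all genes. Between both genotypes on NR, 1 of 26 was higher and 3 were lower, where 6.09% of all genes passed.

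Genes of this list are named where the groups did not overlap and the unadjusted p was under 0.05. Hddc3, whose product can remove a phosphate from NADPH, had 3.27 to 5.77 CPM in WT and 7.31 to 42.8 CPM in hTau.P301S mice, and its log2 fold change was 2.03 (standard error 0.59, adjusted p = 0.598). Without replicate 1 its hTau.P301S levels were 7.31 to 11.3 CPM and the value was 1.08 (standard error 0.26, adjusted p = 0.269). On NR its levels were 4.15 to 15.7 CPM in WT and 7.04 to 13.3 CPM in hTau.P301S mice, which overlapped, and the value was 0.42 (standard error 0.44, adjusted p = 0.848). Nt5c3, a cytosolic nucleotidase that acts on nucleoside monophosphates, had 32.9 to 38.6 CPM in WT, 39.99 to 65.0 CPM in hTau.P301S and 26.2 to 35.9 CPM in hTau.P301S + NR mice. Its log2 fold changes were 0.48 by genotype (adjusted p = 0.598) and -0.58 with NR (adjusted p = 0.367), and without replicate 1 they were 0.30 and -0.39. The interaction of Nt5c3 was -0.53 (standard error 0.22, adjusted p = 0.558).

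Slc25a17, a carrier of NAD+ and other cofactors into peroxisomes, had 41.7 to 57.3 CPM in hTau.P301S and 31.0 to 36.7 CPM in hTau.P301S + NR mice, and its log2 fold change was -0.51 (standard error 0.16, adjusted p = 0.367), or -0.39 without replicate 1 (adjusted p = 0.120). Slc29a3, a nucleoside transporter of lysosomes, had 17.5 to 21.98 CPM in WT + NR and 22.3 to 29.8 CPM in hTau.P301S + NR mice, a value of 0.53 (standard error 0.13, adjusted p = 0.684). Its value in hTau.P301S relative to WT mice was 0.40 without hTau.P301S replicate 1 (adjusted p = 0.404). Averaged over treatment its value was 0.43 with all mice (adjusted p = 0.201, edgeR) and 0.46 without that mouse (adjusted p = 0.0565, edgeR), which was the smallest adjusted p of the wider list in any of these comparisons. Without that mouse, Noct, a phosphatase of NADP+ and NADPH, had 67.6 to 80.4 CPM in hTau.P301S and 49.5 to 59.5 CPM in WT mice, and its value was 0.44 (standard error 0.13, adjusted p = 0.314). Afmid, an enzyme of the kynurenine route, passed the filter for NR in hTau.P301S mice only without that mouse, with 0.318 to 0.436 CPM in hTau.P301S and 0.470 to 0.852 CPM in hTau.P301S + NR mice. It had at most 8 and 19 counts per mouse, and because the NR group carried it past the filter, no test of it is given.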

How the data were processed

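Hippocampal RNA of 16 mice was measured by RNA-seq, with 4 mice in each of 4 groups taken from the sample labels. Libraries were made with a NEBNext Ultra kit. The authors checked and trimmed the reads with FastQC and Trim Galore, used STAR for alignment to mm10 and RSEM for counting, and the counts per gene were deposited as whole numbers with no normalization. Versions and whether counting used strand are not given in the sources used here. Annotated neighbours on the other strand shared 0 exonic bases with these enzymes. The deposited table also lists another value, a length for each gene, used here only to compare levels between genes.

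Each pair of groups was fitted on its 8 mice with the quasi-likelihood test of edgeR 4.0.16 (R 4.3.3) after its default filter for genes with few counts and TMM scaling. The interaction and both averages were fitted on 16 mice. Benjamini-Hochberg adjustment covered all genes tested in a fit, and the standard error was taken from the log2 fold change and its test statistic. Log2 CPM used a prior count of 2. Differences of single genes were also put to exact permutation tests, two-sided, with scipy 1.17.1 (40 tests), which cannot give a p under 0.0286 with 4 against 4 mice. Nothing in the labels names litters or batches, so p-values measure the spread between these mice. The fits were tested on simulated data.

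All 10 enzymes are named. Of the wider list, those at an unadjusted p under 0.05 whose groups did not overlap are named, at most 5 per comparison by p, and of the genes most like Nampt and Naprt the 5 with the highest Spearman correlation. Genes named beside these were chosen after their values were seen. The enzymes and lists were chosen with earlier results of these data known. Positions and exon overlaps come from GENCODE's annotation of GRCm38. Promoters come from RefSeq (GRCm38.p6), and 8 of the 10 genes had an entry.

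Alternatives were DESeq2 1.42.0 in place of edgeR, its size factors, other filters, leaving out mitochondrial genes, one fit for all 4 groups, no limit on the fold change, a block for the replicate number and each mouse left out in turn. The other 2 were chosen after seeing the data, limma 3.58.1 (voom with sample quality weights) and DESeq2 on 15 mice.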

Additional observations from a re-analysis of the deposited data

Results flagged for a closer look

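For each enzyme and each group of 4 mice, the gap of the highest or the lowest mouse to its nearest neighbour was divided by the range of the group on the log2 CPM scale, and a mouse was singled out where this share was above Dixon's critical value for 4 samples. Of 40 such groups 7 had such a mouse. Chance gives about 1 in 20 for independent groups, but these genes share their mice, 3 of the 7 are hTau.P301S replicate 1, and the count was not compared with that of all genes. In hTau.P301S mice, replicate 1 was far below the other 3 for Nmnat2 (share 0.986), Nadk (0.920) and Nampt (0.892). In WT mice, replicate 3 was far above the others for Nmnat2 (0.893). In WT + NR mice, replicate 3 was far below the others for Nmrk1 (0.922). In hTau.P301S + NR mice, replicate 2 was far below the others for Nmnat1 (0.856) and replicate 4 far above the others for Nadsyn1 (0.862). Nmnat1, Nmrk1 and Nadsyn1 have 51 to 118 counts per mouse, which limits the precision of each value.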

How the results depend on the processing

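None of the 575 log2 fold changes recomputed under another setting and none of the 792 recomputed with 1 mouse left out made an enzyme pass the limits for a call. In 28 of the 575 and 66 of the 792 the sign changed. The 40 group means changed by less than 1 SD with DESeq2's size factors. Counting error limits Qprt (4 to 52 counts per mouse) most.

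Both settings chosen after seeing the data give hTau.P301S replicate 1 little or no weight (voom quality weight 0.0535, or left out). With voom quality weights, values in hTau.P301S against WT became -0.07 for Naprt and -0.30 for Nadsyn1, with NR in hTau.P301S mice 0.07 for Nmnat1, -0.14 for Nmnat2, 0.08 for Naprt and 0.09 for Nadsyn1, with NR in WT mice 0.01 for Nadk, in hTau.P301S + NR against WT + NR 0.19 for Naprt and 0.06 for Nadk2, in the interaction -0.23 for Nmnat2, 0.25 for Naprt and 0.15 for Nadsyn1, and for NR on average -0.04 for Nampt, -0.02 for Nmnat2, -0.02 for Nmrk1 and 0.01 for Nadsyn1. With DESeq2 on 15 mice, values in hTau.P301S against WT became -0.13 for Naprt and -0.34 for Nadsyn1, and with NR in hTau.P301S mice 0.13 for Nmnat1, -0.12 for Nmnat2, 0.20 for Nadsyn1 and -0.07 for Nadk2. With no filter Nadsyn1 was -0.0042 in hTau.P301S against WT and Nadk2 0.00072 in hTau.P301S + NR against WT + NR, and with at least 10 counts in every mouse Nadsyn1 was -0.0021 in the first.

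The number of enzymes at an unadjusted p under 0.05 moved with the setting. In hTau.P301S against WT it was 3 (Nampt, Nmnat2 and Nadk) under both of those settings and 0 to 3 with 1 mouse left out. With NR in hTau.P301S mice it was 1 under both (Nadk), 1 with all 4 groups in one fit by edgeR or DESeq2 (Naprt), and 0 to 1 with 1 mouse left out, 1 without hTau.P301S replicate 4. With NR in WT mice it was 1 (Qprt) by DESeq2 and with no filter, and 0 to 1 with 1 mouse left out (1 without WT replicate 1 or 3 or WT + NR replicate 4). With 1 mouse left out, the WT mice carried Qprt past the filter in this pair. In hTau.P301S + NR against WT + NR it was 0 with no filter, and 0 to 1 with 1 mouse left out, Nmnat3 passing the limit no longer without WT + NR replicate 1 or 3 or hTau.P301S + NR replicate 1 or 3, and Nmrk1 passing it without WT + NR replicate 3. With voom quality weights it was 1 for the interaction (Nadk) and 4 for genotype on average (Nmnat2, Nadk, Nampt and Nmnat3), where 1 to 3 passed with 1 mouse left out. For NR on average it was 0 with at least 10 counts in every mouse, and 0 to 2 with 1 mouse left out, 0 without WT replicate 2 or 4, WT + NR replicate 1, 2 or 3, hTau.P301S replicate 1 or hTau.P301S + NR replicate 1, 2 or 3, and 2 without WT replicate 3 (Nmnat3 and Qprt), hTau.P301S replicate 2 (Naprt and Nmnat3) or hTau.P301S replicate 4 (Naprt and Qprt).

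Without 1 mouse, the Naprt value in hTau.P301S against WT ran from -0.14 to 1.02, that of Nmnat2 from -0.06 to 0.31, that of Nmrk1 from -0.10 to 0.21, that of Nadsyn1 from -0.35 to 0.20 and that of Nadk2 from -0.09 to 0.20. With NR in hTau.P301S mice the ranges were -0.24 to 0.06 for Nampt, -0.22 to 0.13 for Nmnat1, -0.12 to 0.23 for Nmnat2, -0.35 to 0.20 for Nadsyn1 and -0.06 to 0.21 for Nadk2. With NR in WT mice they were -0.00078 to 0.14 for Nampt and -0.06 to 0.02 for Nadk. In hTau.P301S + NR against WT + NR they were -0.05 to 0.15 for Nampt, -0.17 to 0.04 for Nmnat1, -0.18 to 0.14 for Naprt and -0.08 to 0.11 for Nadk2. For the interaction they were -0.01 to 0.34 for Nmnat1, -0.23 to 0.13 for Nmnat2, -1.09 to 0.08 for Naprt, -0.28 to 0.25 for Nadsyn1 and -0.21 to 0.08 for Nadk2. For genotype on average they were -0.10 to 0.48 for Naprt, -0.22 to 0.04 for Nadsyn1, -0.53 to 0.02 for Qprt and -0.04 to 0.09 for Nadk2. For NR on average they were -0.08 to 0.07 for Nampt, -0.01 to 0.17 for Nmnat2, -0.09 to 0.13 for Nmrk1 and -0.19 to 0.07 for Nadsyn1. Leaving out hTau.P301S replicate 1 gave an end of the range for Naprt, Nadsyn1 and Nmnat2 in each comparison that includes it, and 13 of its 50 values had a changed sign. The cause of these changes was not tested.

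Same-numbered mice of 2 groups are different animals, and their deviations from the group means correlated at -0.54 to 0.29. With the replicate number as a block, 0 enzymes were at an unadjusted p under 0.05 in hTau.P301S + NR against WT + NR and 0 for NR on average. In hTau.P301S against WT, Nmnat2 was then -0.05 and Nadsyn1 -0.06, and in hTau.P301S + NR against WT + NR Nadk2 was 0.0038. The block added no call.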

Other observations

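Nnt, the mitochondrial transhydrogenase that passes hydrogen from NADH to NADP+, was near the limit of detection in all 4 groups. It had at most 14 counts in a WT mouse, 8 in a WT + NR mouse, 5 in an hTau.P301S mouse and 10 in an hTau.P301S + NR mouse, with mean levels of 0.487 CPM, 0.214 CPM, 0.136 CPM and 0.191 CPM. Among the other genes of the wider list, Slc25a51, the carrier of NAD+ into mitochondria, was abundant, with 111 ± 7.50 CPM (SD, n = 4) in WT and 93.7 ± 20.1 CPM (SD, n = 4) in hTau.P301S mice. Its log2 fold change in hTau.P301S + NR relative to WT + NR mice was -0.27 (standard error 0.10, adjusted p = 0.781 by edgeR), and the groups overlapped.

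Naxe and Naxd, a pair of enzymes that repair damaged NADH and NADPH, were far from the other mice in hTau.P301S replicate 1, as Naprt was. Naxe had 224 CPM there, against 31.9 to 45.3 CPM in the other 3 mice of the group, and Naxd had 152 CPM, against 34.6 to 44.1 CPM. Hddc3 had 42.8 CPM there, against 7.31 to 11.3 CPM. These genes were named after their values were seen, and no test was made on this mouse alone.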
